A study of Mus musculus with 2 samples.

Results

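The Hox genes encode homeodomain transcription factors that give cells of the trunk and limbs their place along the body axis. In the mouse they lie in 4 clusters, Hoxa on chromosome 6, Hoxb on chromosome 11, Hoxc on chromosome 15 and Hoxd on chromosome 2. Within a cluster each gene has a paralogue number, low at the end used in anterior parts of the embryo and high at the end used in posterior and distal parts. Cultured dermal fibroblasts are known to keep the Hox pattern of the skin site they came from, and several Hox genes also act in keratinocytes and hair. The members described here are all genes with a probe set whose annotation gives a single symbol, and that a protein-coding Hox symbol. There are 36 such genes on 37 probe sets, of 22180 genes with a probe set of their own.

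RNA was taken at day 7 from a three-dimensional skin model of an Itih5 knockout mouse and from a model of a wildtype mouse, with 1 array for each. Both models were built from epidermal keratinocytes and dermal fibroblasts of adult, untreated mice, and the cells had been passaged serially in culture. ITIH5 is an inter-alpha-trypsin inhibitor heavy chain that stabilizes hyaluronan. The body site of the skin, the number of mice, and whether each model is a single colony are not stated in the labels, so no site is known against which a Hox pattern could be set. With 1 array a group there is no spread between replicates to set a difference against, and no test was made.

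Values are array intensities, and differences are log2 intensity of the knockout minus that of the wildtype model. The files had lost nearly all decimal points, which were restored from the digits. A gene counted as expressed if its intensity was at least 47.6, the median of the whole array, in 1 model or both. Intensities of different probe sets are not comparable with each other, so each gene is compared only between the models. Sums of marker intensities, given below, are therefore led by their brightest probe sets, and they too are compared only between the models. Itih5 itself read 30.4 in the knockout model and 29.8 in wildtype, below that threshold in both, and its probe set therefore checks neither label.

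The Hox clusters also hold microRNA genes, and their mature sequences are shown because they fall into seed families that span clusters. The hairpins of Mir196a-1, Mir196a-2, Mir10b and Mir615 have values here, whereas Mir196b and Mir10a have none of their own and are printed to compare the seeds. In mouse embryos miR-196 is known to direct cleavage of Hoxb8 messenger RNA. The sequences are from RefSeq (GRCm38.p6), written from the first base on, with the seed, bases 2 to 8, in capitals.
miR-196a-5p: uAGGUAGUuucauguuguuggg
miR-196b-5p: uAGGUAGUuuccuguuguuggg
miR-10a-5p: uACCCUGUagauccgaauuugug
miR-10b-5p: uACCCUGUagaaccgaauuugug
miR-615-3p: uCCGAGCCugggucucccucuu
miR-196a-5p and miR-196b-5p share the seed AGGUAGU and differ by 1 base (A12C, the miR-196a base first, counted from the 5′ end). miR-10a-5p and miR-10b-5p share the seed ACCCUGU and differ by 1 base (U12A, the miR-10a base first). miR-196a comes from a gene between Hoxb13 and Hoxb9 (Mir196a-1, chr11:96265187-96265208, plus strand) and from one between Hoxc10 and Hoxc9 (Mir196a-2, chr15:102973365-102973386, plus strand). Mir196b lies between Hoxa9 and Hoxa10 (chr6:52230129-52230150, minus strand). Mir10a (chr11:96317186-96317208, plus strand) lies within the Hoxb3 gene and Mir10b (chr2:74726074-74726096, plus strand) within the overlapping genes Hoxd3 and Hoxd4. Mir615 (chr15:103014969-103014990, plus strand) lies within Hoxc5.

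Among the Hox genes, Hoxc6 and Hoxc8 stood higher in the knockout model by at least 2-fold, and none stood lower by that much. Of the 36 genes, 35 had a restored decimal point, and 23 of these were expressed. The 2 genes at least 2-fold higher stand against a background of 3.83% of the 12486 expressed genes, and the 0 lower ones against 3.28%. At 1.5-fold, 6 Hox genes were higher (background 11.7%) and 0 lower (background 8.39%). The 6 were Hoxc6, Hoxc8, Hoxc12, Hoxa4, Hoxd8 and Hoxb6. In all, 18 of the 23 expressed Hox genes (78.3%) lay above 0, beside 54.4% of all expressed genes, and their median difference was 0.40 (1.32-fold), beside 0.04 for all expressed genes. Without Hoxc6 and Hoxc8 the median of the other 21 was 0.40. Of the 23, 6 passed the threshold in the knockout model alone and 2 in wildtype alone, so their direction follows from the threshold. Over all 35 restored Hox genes, expressed or not, 26 lay above 0 and the median was 0.23, beside 52.0% above 0 and a median of 0.01 over all 20822 restored genes.

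**Figure D1:**
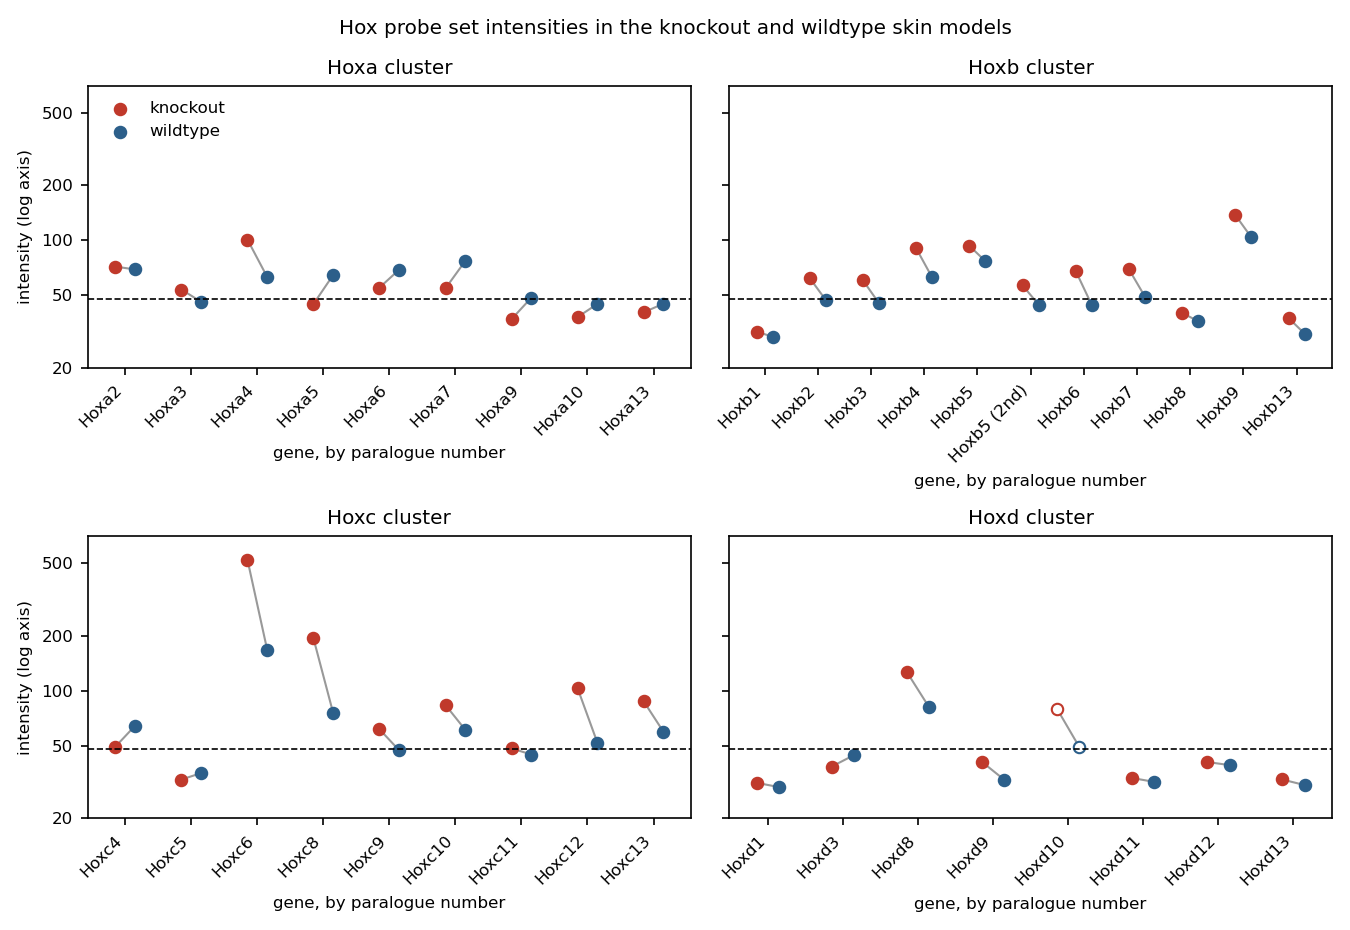
Intensity on a log axis of each Hox probe set in the knockout model (red) and the wildtype model (blue), 1 array each, by cluster and paralogue number. The dashed line is the expression threshold of 47.6, open circles are the likeliest values of Hoxd10, whose point is undecided, and Hoxc6 and Hoxc8 show the widest gaps.

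Hoxc6, a gene of the thoracic region of the embryo, read 523 in the knockout model and 167 in wildtype. Both values were well above the threshold, the decimal point had 1 possible place on each array, and the gene was 3.13-fold higher in the knockout model. Of all expressed genes, 0.889% had a difference as high as this or higher. Hoxc8, its neighbour, which patterns thoracic vertebrae and ribs in mice, read 194 in the knockout model and 75.1 in wildtype, 2.58-fold higher. Its knockout value had a second possible place, 19.4, which would put the gene lower in the knockout model. That place had a probability of 0.028, against 0.97 for the one used, and it would lie below the 5th percentile of the knockout array (21.3). Hoxc6 is therefore the firmer of the pair.

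The higher values in the knockout model ran on from Hoxc6 to the posterior end of the Hoxc cluster. Hoxc12 read 103 in the knockout model and 51.9 in wildtype, 1.99-fold higher and so just under the 2-fold line. Hoxc13, which is required for hair and nail formation in mice, read 87.6 in the knockout model and 59.6 in wildtype (1.47-fold higher). Hoxc10, a gene of the lumbar region and hindlimb, read 83.4 in the knockout model and 61.0 in wildtype (1.37-fold higher). Hoxc9 and Hoxc11 passed the threshold in the knockout model alone, Hoxc9 with 61.5 in the knockout model and 47.0 in wildtype, and Hoxc11 with 48.3 in the knockout model and 44.7 in wildtype. All 7 members from Hoxc6 to Hoxc13 thus lay above 0, beside 54.4% of all expressed genes. Their median was 0.56, beside 0.04 for all expressed genes. For Hoxc9 and Hoxc11, the place above 0 among the expressed members follows from the threshold. The stretch was marked out after its values were seen. At the anterior end of the cluster only Hoxc4 was expressed, and it read the other way. Hoxc4 read 49.3 in the knockout model and 64.4 in wildtype (1.30-fold lower), and Hoxc5 was below the threshold in both, with 32.6 in the knockout model and 35.4 in wildtype.

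**Figure D2:**
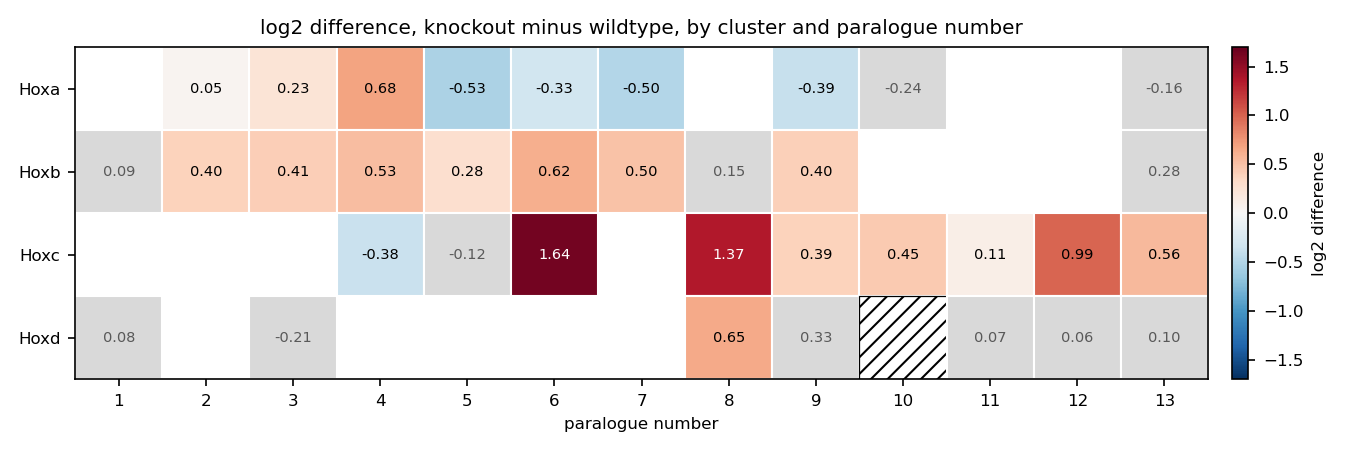
The log2 difference, knockout minus wildtype, of each Hox gene by cluster (rows) and paralogue number (columns). Red is higher and blue lower in the knockout model, grey cells were below the expression threshold in both models, the hatched cell is the undecided Hoxd10, and blank cells have no gene or no probe set of their own. The red run from Hoxc6 to Hoxc13 and the blue run from Hoxa5 to Hoxa9 stand out.

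In the Hoxa cluster the higher values in the knockout model lay at the anterior end, mainly at Hoxa4. Hoxa4 read 101 in the knockout model and 62.8 in wildtype (1.60-fold higher), whereas its posterior neighbours read lower. Hoxa6 read 55.0 in the knockout model and 69.1 in wildtype (1.26-fold lower). Hoxa7 read 54.5 in the knockout model and 77.1 in wildtype (1.41-fold lower). For the next 2 only the wildtype value passed the threshold, so their folds depend on the background of the arrays. Hoxa5, which acts in the lung and the cervical and upper thoracic skeleton of the mouse, read 44.7 in the knockout model and 64.6 in wildtype. Hoxa9, a posterior gene also known from blood progenitors, read 36.9 in the knockout model and 48.5 in wildtype, just over the threshold. Hoxa10 and Hoxa13, both below the threshold in each model, had differences of -0.24 and -0.16. All 6 measured members from Hoxa5 to Hoxa13 therefore read lower in the knockout model, each by less than 1.5-fold. For comparison, 9990 of all 20822 restored genes lay below 0. Among the 6, only Hoxa6 and Hoxa7 were above the threshold in both models. This stretch too was marked out after its values were seen. At the anterior end, Hoxa2, a gene of the second branchial arch, read 71.7 in the knockout model and 69.1 in wildtype. Hoxa3, needed for the thymus and parathyroid, read 53.7 in the knockout model and 45.9 in wildtype, above the threshold in the knockout model alone.

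The Hoxb cluster read higher in the knockout model along its whole measured length, by small amounts. All 7 expressed members lay above 0, beside 54.4% of all expressed genes, with a median of 0.41 (1.33-fold). Hoxb9, the most posterior of these 7, read 137 in the knockout model and 104 in wildtype (1.32-fold higher). Hoxb4, known for its part in blood stem cell renewal, read 90.2 in the knockout model and 62.5 in wildtype (1.44-fold higher). Hoxb7 read 69.2 in the knockout model and 49.0 in wildtype (1.41-fold higher). Hoxb6, Hoxb3 and Hoxb2 passed the threshold in the knockout model alone, so their place above 0 among the expressed members follows from the threshold. Hoxb6 read 67.7 in the knockout model and 44.2 in wildtype. Hoxb3 read 60.2 in the knockout model and 45.2 in wildtype, and Hoxb2 read 62.0 in the knockout model and 47.1 in wildtype. Hoxb5 is the gene with a pair of probe sets, and they gave the same direction. One read 93.2 in the knockout model and 76.8 in wildtype (difference 0.28), and the other read 56.5 in the knockout model and 44.4 in wildtype (difference 0.35). Hoxb1, Hoxb8 and Hoxb13 were below the threshold in both models, with differences of 0.09, 0.15 and 0.28.

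In the Hoxd cluster, Hoxd8 was the single expressed member with a restored point. It read 127 in the knockout model and 81.0 in wildtype, 1.57-fold higher. Hoxd10, a gene of the hindlimb and lumbar motor neurons, could not be placed. Its values were 79.8 in the knockout model and 49.1 in wildtype with a probability of 0.68, or 798 in the knockout model and 491 in wildtype with a probability of 0.31. Both readings give the same difference of 0.70, and together they hold a probability of 0.986, so the direction is better fixed than the level. Hoxd1, Hoxd3, Hoxd9, Hoxd11, Hoxd12 and Hoxd13 were below the threshold in both models.

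Among the restored members, 12 did not reach the threshold in either model. Their values lay between 31.3 and 40.8 in the knockout model and between 29.6 and 44.9 in wildtype, and none differed by more than 0.33 log2. The nearest to the threshold were Hoxa13, Hoxa10 and Hoxd3, with 44.9, 44.7 and 44.4 in the wildtype model. Just inside it stood Hoxc11 and Hoxa9. Of the 23 expressed members, 15 were above it in both models, 6 in the knockout model alone and 2 in the wildtype model alone. By paralogue number, and over all restored members, expressed or not, the 7 genes of groups 1 to 3 had a median difference of 0.09, the 14 of groups 4 to 8 one of 0.39 and the 14 of groups 9 to 13 one of 0.20, beside 0.01 for all restored genes. Genes of 1 paralogue group did not all read the same way. In group 6, Hoxa6 was lower while Hoxb6 and Hoxc6 were higher in the knockout model, and in group 9, Hoxa9 was lower while Hoxb9 and Hoxc9 were higher.

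**Figure D3:**
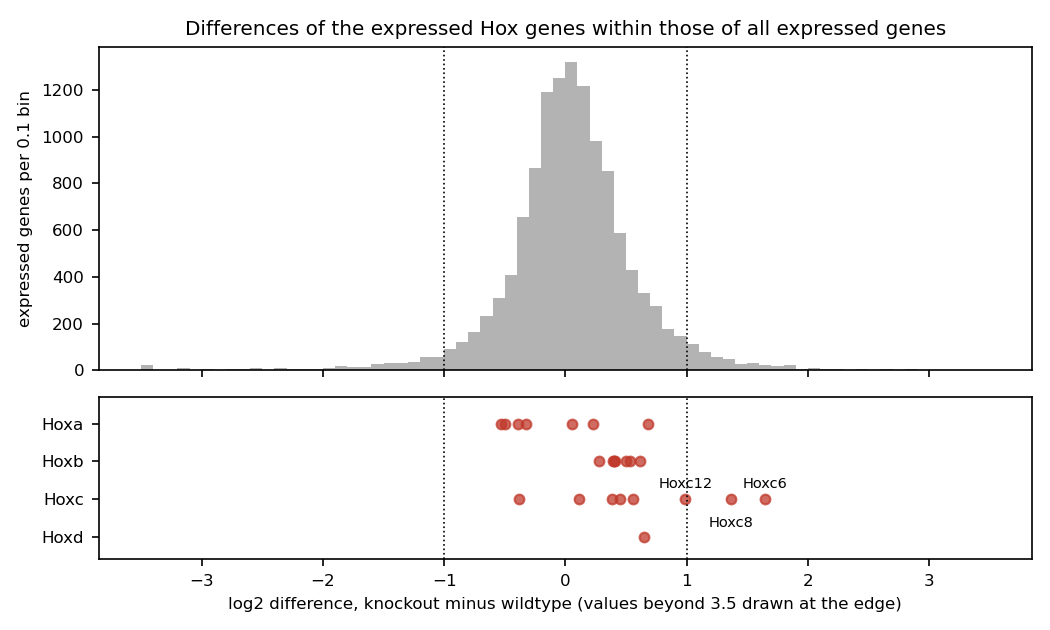
Top, the number of expressed genes per bin of log2 difference, knockout minus wildtype; bottom, the 23 expressed Hox genes on the same axis by cluster, with dotted lines at a 2-fold difference. Hoxb and most Hoxc genes lie to the right of 0, and Hoxc6 and Hoxc8 lie beyond the line.

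None of the microRNA hairpins and long non-coding RNAs measured in the clusters was 2-fold apart. The Mir196a-1 hairpin read 107 in the knockout model and 103 in wildtype. The Mir196a-2 hairpin, beside Hoxc9 and Hoxc10, was below the threshold in both, with 29.9 in the knockout model and 39.4 in wildtype. Mir10b (23.7 in the knockout model and 22.5 in wildtype) and Mir615 (38.8 in the knockout model and 41.7 in wildtype) were also below it. These probe sets do not measure the mature microRNAs printed above. Hotair, a long non-coding RNA transcribed from the Hoxc cluster, read 59.0 in the knockout model and 53.6 in wildtype, and Hoxaas3 of the Hoxa cluster 65.7 in the knockout model and 62.5 in wildtype. The list also held Hmga2, a chromatin protein gene, with 1062 in the knockout model and 706 in wildtype (difference 0.59), and Gmnn, the replication inhibitor geminin, with 76.4 in the knockout model and 88.7 in wildtype. Of its 5 expressed members, 0 were 2-fold apart, beside backgrounds of 3.83% higher and 3.28% lower.

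Hox proteins bind DNA together with TALE homeodomain cofactors of the Pbx, Meis and Pknox families. All 7 expressed cofactor genes lay above 0, none by 2-fold, with a median of 0.27, beside 54.4% of all expressed genes above 0 and 3.83% at least 2-fold higher. The widest gap among them was that of Meis3, with 111 in the knockout model and 72.0 in wildtype (1.54-fold higher). Meis2 read 471 in the knockout model and 384 in wildtype (1.23-fold higher), and Meis1 read 199 in the knockout model and 147 in wildtype (1.36-fold higher). Pbx3 (171 in the knockout model and 155 in wildtype) and Pknox1 (110 in the knockout model and 91.4 in wildtype) were closer to equal.

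Other genes that mark body regions included several with wide gaps. Of 24 expressed genes on a list of regional homeobox, T-box and related transcription factors, 5 stood higher and 3 lower by 2-fold or more in the knockout model, with a median of -0.05, beside the same backgrounds of 3.83% and 3.28%. Tbx3, a limb and mammary T-box gene, read 624 in the knockout model and 156 in wildtype, 4.00-fold higher. Tbx15, a gene of the dorsal dermis and skeleton of the trunk, read 775 in the knockout model and 342 in wildtype, 2.27-fold higher. Emx2, a homeobox gene of the urogenital system, forebrain and shoulder blade, read 154 in the knockout model and 56.9 in wildtype, 2.71-fold higher. The other higher genes passed the threshold in the knockout model alone. Tbx5, the forelimb T-box gene, read 164 in the knockout model and 37.6 in wildtype, and Hand2, a gene of the heart and posterior limb bud, 129 in the knockout model and 47.3 in wildtype.

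The 3 lower genes included the widest gap among those counted. Pax3, a gene of neural crest, muscle precursors and melanocytes, read 39.8 in the knockout model, below the threshold, and 342 in wildtype. Otx1, a head homeobox gene, read 91.7 in the knockout model and 231 in wildtype, 2.52-fold lower. Dlx6, of the jaw and limb, read 41.4 in the knockout model and 87.1 in wildtype, with the knockout value below the threshold. Among those under 2-fold, the hindlimb gene Pitx1 read 87.9 in the knockout model and 159 in wildtype (1.81-fold lower). Tbx18 read 154 in the knockout model and 100 in wildtype (1.53-fold higher), whereas Pax9 (138 in the knockout model and 142 in wildtype) and Barx1 (76.3 in the knockout model and 82.6 in wildtype) were close to equal. The second possible places of Tbx3, Tbx5 and Tbx15 would put all of them further up in the knockout model. Tbx4, the hindlimb T-box gene, was below the threshold in both. Prrx1, Isl1 and Dlx5 could not be placed and are not counted. Prrx1, a limb and craniofacial mesenchyme gene, had likeliest values of 772 in the knockout model and 382 in wildtype, with a probability of 0.85. Its other place, 77.2 in the knockout model and 382 in wildtype, had a probability of 0.15 and would turn the direction.

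**Figure D4:**
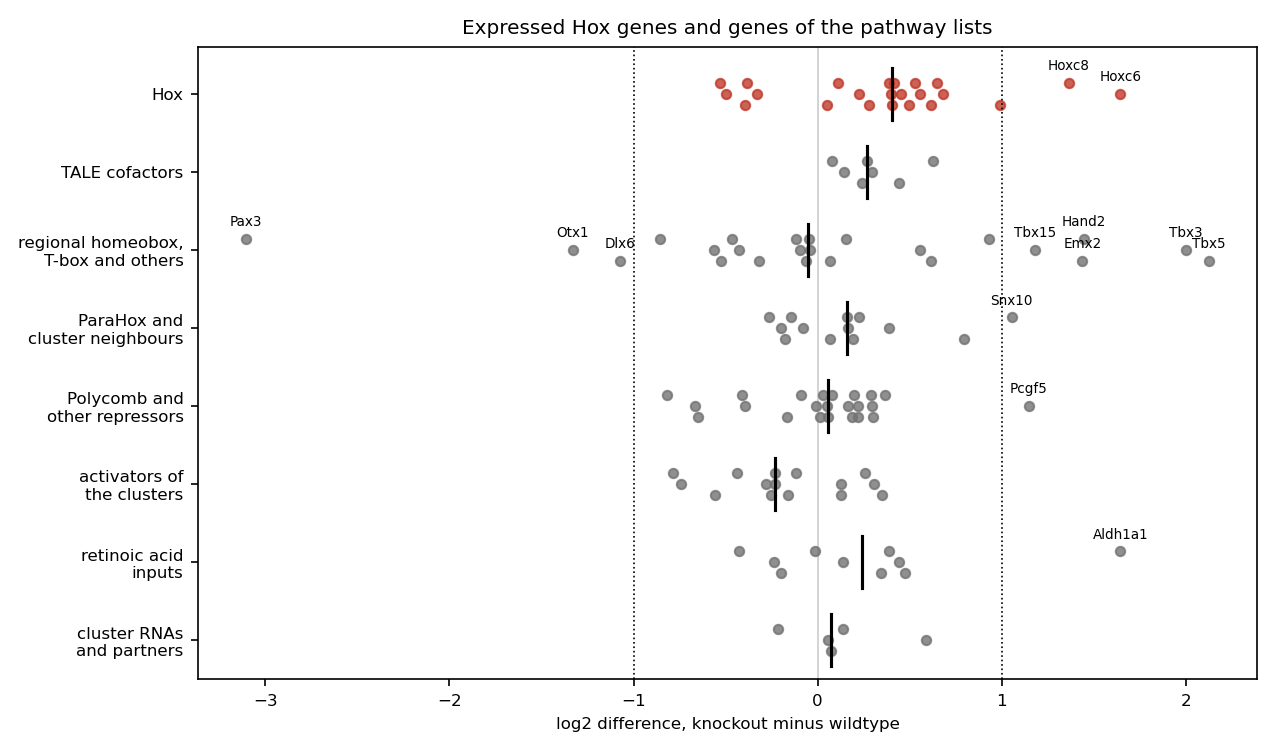
Log2 difference, knockout minus wildtype, of each expressed gene (points) of the Hox family and of the pathway lists, with the median of each list as a black bar and dotted lines at a 2-fold difference. The regional transcription factors spread from Pax3 at -3.10 to Tbx5 at 2.12, whereas the other lists stay mostly within 2-fold.

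Polycomb complexes keep Hox clusters silent, and trithorax-type methyltransferases and demethylases keep them active. Of 23 expressed genes for Polycomb proteins and other repressors, Pcgf5 was at least 2-fold higher, with 150 in the knockout model and 67.8 in wildtype, and 0 lay lower by that much (median 0.06), beside backgrounds of 3.83% higher and 3.28% lower. At 1.5-fold, 1 was higher and 3 were lower, beside 11.7% and 8.39%. Rbbp4 (1528 in the knockout model and 1239 in wildtype), Rbbp7 (1318 in the knockout model and 1072 in wildtype), Yy1 and Rnf2 were under 1.5-fold. The 3 were Ezh2, Jarid2 and Aebp2. Ezh2, the methyltransferase that sets the Polycomb mark, read 510 in the knockout model and 809 in wildtype (1.59-fold lower). Jarid2, for an accessory subunit of the same complex, read 422 in the knockout model and 743 in wildtype (1.76-fold lower). Aebp2, for another accessory subunit, read 226 in the knockout model and 355 in wildtype (1.57-fold lower). Ezh1, Pcgf1 and Pcgf6 could not be placed and are not counted. Of 15 activator genes, 0 were 2-fold apart, beside the same 2-fold backgrounds. Of these genes 10 lay below 0, with a median of -0.23, beside 5695 of all 12486 expressed genes and a median of 0.04. At 1.5-fold, 0 activators were higher and 2 lower, beside the same 11.7% and 8.39%. Dot1l, a histone methyltransferase gene, read 371 in the knockout model and 639 in wildtype (1.72-fold lower), and Kdm6b, which removes the Polycomb mark, 364 in the knockout model and 608 in wildtype (1.67-fold lower). Kmt2a, the methyltransferase best known for holding Hox genes active, read 467 in the knockout model and 428 in wildtype, and Ash2l 377 in the knockout model and 450 in wildtype.

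Retinoic acid is a known inducer of Hox genes in embryos and cultured cells. Of 10 expressed genes of its synthesis, transport and receptors, Aldh1a1, a retinaldehyde dehydrogenase gene, was at least 2-fold higher, with 1138 in the knockout model and 364 in wildtype (3.13-fold higher), and 0 were 2-fold lower (median 0.24), beside backgrounds of 3.83% higher and 3.28% lower. The receptor gene Rxra read 628 in the knockout model and 494 in wildtype, and Rxrb 137 in the knockout model and 184 in wildtype. Crabp1, for a retinoic acid binding protein, read 543 in the knockout model and 391 in wildtype. Its relative Crabp2 was close to equal, with 875 in the knockout model and 883 in wildtype. Aldh1a3 could not be placed and is not counted. Its likeliest values were 535 in the knockout model and 1092 in wildtype, lower in the knockout model, with a probability of 0.73. The other possible places of Aldh1a3 would turn the direction. Of 13 expressed ParaHox genes and genes that flank the clusters, Snx10, from beyond the Hoxa cluster, was 2-fold higher, with 268 in the knockout model and 129 in wildtype, and 0 were 2-fold lower (median 0.16), beside the same backgrounds. The flanking genes Tax1bp1 (985 in the knockout model and 1088 in wildtype), Hibadh (591 in the knockout model and 564 in wildtype), Mtx2 (858 in the knockout model and 735 in wildtype) and Cbx5 (574 in the knockout model and 438 in wildtype) were under 1.5-fold. At 1.5-fold, 2 of the 13 were higher and 0 lower, beside 11.7% and 8.39% of all expressed genes. The 2 were Snx10 and Calcoco1. Calcoco1 read 573 in the knockout model and 330 in wildtype (1.74-fold higher).

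Markers of the cell types in the models differed as well, and their counts stand beside 54.4% of all expressed genes above 0 and the 2-fold backgrounds of 3.83% higher and 3.28% lower. All 12 expressed dermal fibroblast markers lay above 0, 3 of them at least 2-fold, and the 13 restored among 14 markers summed to 17963 in the knockout model and 10198 in wildtype. Of the 15 restored among 20 keratinocyte markers, 14 lay below 0, 6 of them by 2-fold or more, and they summed to 23542 in the knockout model and 48940 in wildtype. Lum was the fibroblast marker below the threshold in both models, and no restored keratinocyte marker was below it in both. Fewer cells of a type and less RNA per cell cannot be told apart in such samples, and the part of these markers in the Hox differences was not tested. Of the melanocyte markers, Tyr, Tyrp1 and Dct were below the threshold in both models, and the 7 markers summed to 1379 in the knockout model and 546 in wildtype, mostly through Mlana. Markers of endothelial cells summed to 247 in the knockout model and 207 in wildtype, with Pecam1, Cdh5 and Tek below the threshold in both. That higher sum came from Kdr, with 87.4 in the knockout model and 36.1 in wildtype, while Vwf read 50.4 and 53.0. Muscle markers summed to 210.0 in the knockout model and 241 in wildtype. Those of Schwann cells summed to 89.2 in the knockout model and 106 in wildtype, with S100b below the threshold in both. Macrophage and Langerhans cell markers summed to 974 in the knockout model and 1281 in wildtype, with Csf1r, Adgre1 and Cd207 below the threshold in both. Most of that sum was Cd68, the 1 expressed marker of the 4 restored, with 861 in the knockout model and 1161 in wildtype. Adipocyte markers summed to 5664 in the knockout model and 1335 in wildtype, with Adipoq below the threshold in both. Most of that sum was Fabp4, with 4974 in the knockout model and 816 in wildtype, and the other 4 markers summed to 690 in the knockout model and 520 in wildtype.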

How the data were processed

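Total RNA of each model was amplified to sense-strand cDNA and biotin-labelled with Ambion and Affymetrix whole-transcript kits, per the labels' protocols. The deposited values are probe set intensities with a summary and normalization not given in the sources used here. A missing decimal point affected 67457 of 67586 values, a fault that the planned design did not foresee. Possible places gave 18 to 20000, at least 3 decimals, the shortest form of a single-precision number and a power of 2 with a single-precision exponent. The likeliest pair was found by 25 rounds of expectation maximisation over level and difference, and probe sets whose pair reached a probability of 0.95 entered (31875 of 33793 probe sets, 50.0 of them expected to be misplaced). The script was tested on simulated data. No further normalization was applied, since the array medians were 47.1 (knockout) and 47.6 (wildtype). Precision is limited by the number of arrays.

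Genes came from the platform annotation. Hox genes with no probe set of their own are not analysed here, and 7 probe sets that share a Hox symbol with another were left out. A gene with a choice of probe sets was represented by that of the highest mean. From each list, expressed genes at least 2-fold apart and the 4 others with the highest mean were named. Hotair, Tbx4, Meis3, Ezh2, Jarid2, Aebp2, Calcoco1 and the microRNA genes below the threshold were named after their values were seen. Members and lists were chosen with earlier results of these data known. Python 3.11.15, numpy 2.4.6 and pandas 2.3.3 were used.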

Additional observations from a re-analysis of the deposited data

How the results depend on the processing

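The count of Hox genes at least 2-fold higher, 2 in the analysis above, was 1 with a minimum probability of 0.99 or with 1 possible place only, both of which leave out Hoxc8 by construction, and 1 at 3-fold and 6 at 1.5-fold. The count of lower Hox genes was 0 under every setting tried. Without an expression threshold 35 Hox genes entered, with a median of 0.23, and at the 75th percentile (140) 2 entered, with a median of 1.505. Median centring brought Hoxc12 over 2-fold. Among all expressed genes, 478 were higher and 409 lower. With 1 possible place only, a setting that leaves out many probe sets, 312 were higher. At 1.5-fold 1465 were higher and 1048 lower, and at 3-fold 124 were higher and 172 lower. Of 239 differences of single Hox genes under alternatives, 9 moved by over 0.1 log2, all under a pseudocount of 16, and 0 changed sign. Settings that only choose which probe sets enter leave a single difference as it was, and a pseudocount cannot turn its sign. The absence of sign changes was therefore largely fixed in advance. No paired analysis was possible because there is only 1 array for each genotype. Signal over background is the limit for many members: the 5th percentile of the knockout array is 21.3, and differences shrink towards it.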
